A study of Mus musculus with 8 samples.

Results

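Heat shock genes of the cytosol, the nucleus and the mitochondria were followed in mouse bone marrow mesenchymal stem cells exposed to ropivacaine. This drug is a local anaesthetic of the amide class, which stops nerve conduction by blocking sodium channels. The set holds 10 genes, chosen by gene identifier: Hspa1a, Hspa1b, Hspb1, Dnajb1, Hsp90aa1, Hsph1, Hspa8, Hspd1, Hspe1 and Hsf1. Of these, 9 had a row among the 17592 genes measured, and Hspa1a (ENSMUSG00000091971) had none. The rule selects by identifier and uses no measured value.

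The ropivacaine group was 4 arrays of cells given the drug for 24 h, and the control group was 4 arrays of cells without treatment, collected after the same time. The sample annotation gives the dose as 100 uM, whereas the treatment protocol writes 100 mM, and the micromolar value is used here. Both groups were stromal cells of bone marrow of strain C57B6/J, expanded in culture to passage 10, with no transgene or other agent given in the labels. The labels do not state whether the 4 arrays of a group are separate cultures or animals, and the p-values cover the spread between samples only, which may be technical. The labelled cell type could not be checked against its markers, because only the 10 heat shock genes had names paired with their identifiers.

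The heat shock response is the cell's answer to unfolded protein. Heat shock factor 1, encoded by Hsf1, is held inactive by chaperones in unstressed cells. When chaperones are drawn away by damaged proteins, the factor forms trimers and binds heat shock elements, which are alternating inverted repeats of GAA and TTC in the promoters of chaperone genes. Its cytosolic targets include HSP70 chaperones, their J-domain and HSP110 partners, HSP90 and small heat shock proteins. HSP60 and HSP10, encoded by Hspd1 and Hspe1, form the folding chamber of the mitochondrial matrix. Stromal cells in culture express many chaperones without heat stress, so both basal and induced members are included.

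No heat shock gene was called as changed by ropivacaine. With limma, a linear model per gene with moderated variances, 0 of 9 had an adjusted p below 0.05 (Benjamini-Hochberg over all genes), against 0.404% of all genes. At an unadjusted limma p below 0.05 there was 1 of 9, Hspb1, which was higher, against 9.74% of all genes in either direction and 5.34% that were higher. The 9 values had a median log2 fold change of 0.03, against -0.005 over all genes. Of the 9, 6 were above 0, or 66.7%, against 47.5% of all genes. The 95% intervals of 7 of the 9 lay between -0.3 and 0.3 on the log2 scale, and those of Hspb1 and Hsp90aa1 did not. This bound was not part of the planned tests, and the upper limit of Dnajb1, 0.28, lies near it. The share of all genes with intervals inside it was not computed. RNA came from whole cell samples, in which fewer cells with a transcript and less of it per cell cannot be told apart.

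**Figure D1:**
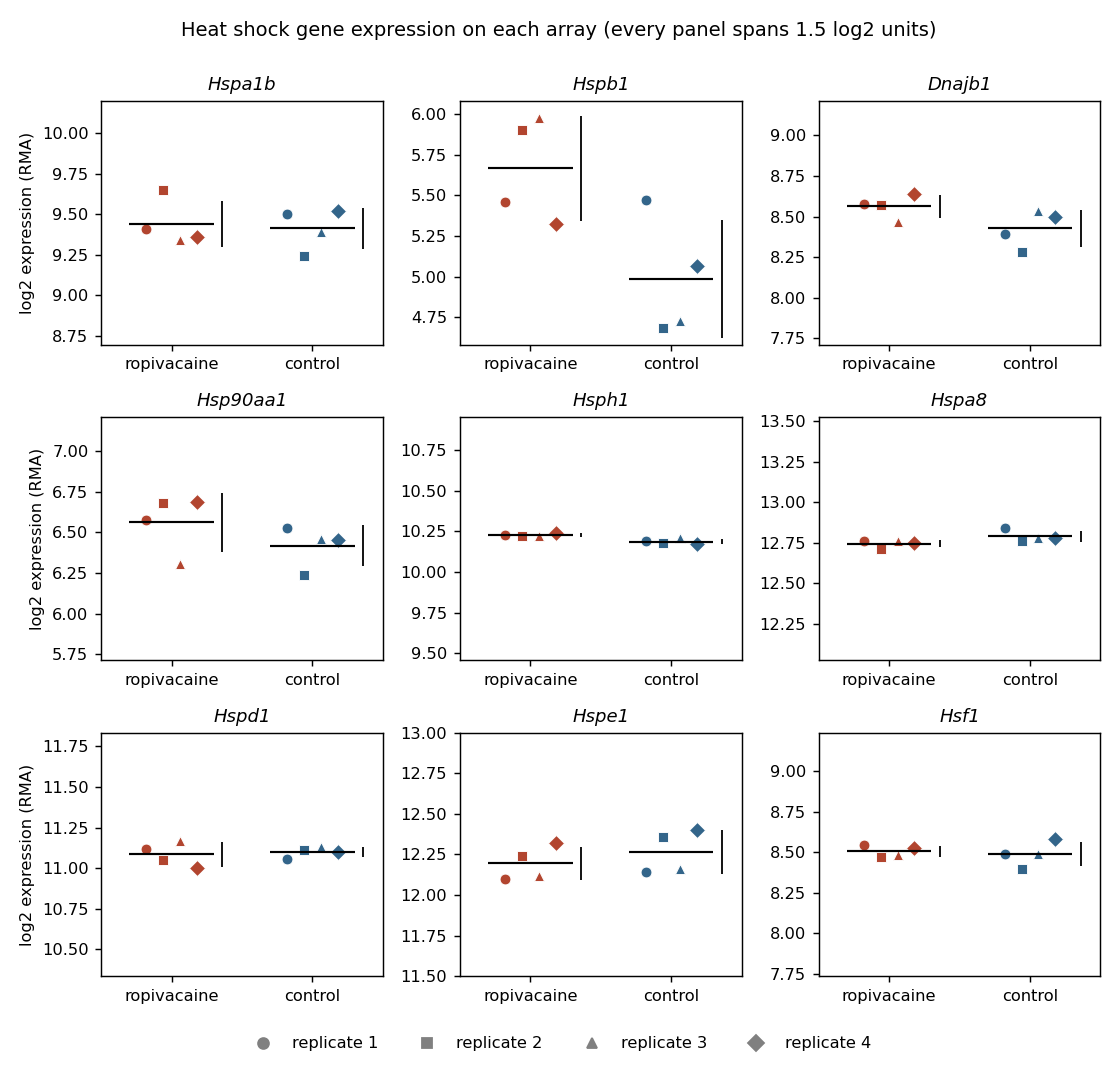
Log2 expression (RMA, vertical axis) of 9 heat shock genes on each array, with ropivacaine left and control right. Each point is 1 array, marker shapes give the replicate number, horizontal bars are group means and vertical bars are ±1 SD (n = 4). All panels span the same log2 distance, so the wide scatter of Hspb1, from 4.68 to 5.98 over the 8 arrays, can be set against the narrow one of Hsph1, from 10.17 to 10.24.

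The inducible small heat shock protein showed the largest difference. Hspb1 (ENSMUSG00000004951) encodes HSP25, the mouse form of human HSP27, which holds unfolding proteins in a refoldable state and associates with actin filaments. Its log2 expression was 5.462, 5.905, 5.979 and 5.321 on ropivacaine arrays 1 to 4, against 5.469, 4.683, 4.724 and 5.064 on control arrays 1 to 4. All 4 ropivacaine values lay above 3 of the 4 control values, and control array 1 overlapped them, lying above ropivacaine arrays 1 and 4.

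The means of Hspb1 were 5.67 ± 0.32 with ropivacaine and 4.99 ± 0.37 in control cells (SD, n = 4 each). Hspb1 thus had a log2 fold change of 0.68 (SE 0.21, 95% interval 0.21 to 1.16), with an unadjusted limma p of 0.010 and an adjusted p of 0.301. Including Hspb1, 15 of the 17592 genes had a log2 fold change this high, of which 4 were called. Both means of Hspb1 lie under the arrays' first quartile of 5.73. Without scanner signals it is not known if they stand above background, and the difference is left on the log2 scale.

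The spread of Hspb1 within groups was wide for a gene of its signal. Its residual SD was 0.345 on the log2 scale, against a median of 0.108 over the genes nearest in mean signal, and 95.4% of those neighbours had a lower SD. Leaving out 1 array at a time gave log2 fold changes of 0.58 to 0.84 and limma adjusted p-values of 0.176 to 0.535. The highest change and the lowest adjusted p came without control array 1. Without control array 2 and ropivacaine array 3, the arrays of lowest estimated weight, the log2 fold change was 0.48 and the adjusted p was 0.558.

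The promoter of Hspb1 is shown because it belongs to the member with the largest difference. The stretch runs from 160 to 61 bases before the RefSeq start site, on the plus strand of GRCm38.p6 at chr5:135887759-135887858. Capitals mark matches to a pair of facing heat shock units, GAANNTTC or TTCNNGAA, searched on both strands. Here and below only exact units were searched, so elements with a mismatched unit were not counted for any member.
Hspb1: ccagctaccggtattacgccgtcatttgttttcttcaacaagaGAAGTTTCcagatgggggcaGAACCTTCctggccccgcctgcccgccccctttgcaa
The 2 matches begin 117 and 97 bases before the start site. Such a pair occurred in 15.1% of the 32851 RefSeq promoter windows of 300 bases (250 before and 50 after a start site).

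Among the cytosolic HSP70 genes, the row of Hspa1b (ENSMUSG00000090877) stood for the stress-inducible form. Hspa1b and Hspa1a are neighbouring, near-identical copies that encode HSP70, which binds and refolds exposed hydrophobic stretches. Their promoter windows, both on chromosome 17, were identical at 296 of 300 positions, or 98.7%. Which probes make up the Hspa1b row is not stated in the sources used here, so signal from the pair of copies cannot be told apart.

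A stretch of 100 bases is printed to show the heat shock unit pair of the stress-inducible HSP70 genes. It lies from 150 to 51 bases before the start site of Hspa1b, on the minus strand of GRCm38.p6 at chr17:34959289-34959388. Hspa1a has the same bases at all 100 positions, at chr17:34972207-34972306. Capitals again mark a match to GAANNTTC or TTCNNGAA.
Hspa1b: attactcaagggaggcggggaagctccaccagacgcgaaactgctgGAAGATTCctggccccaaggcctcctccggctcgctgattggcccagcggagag
The match begins 104 bases before the start site.

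Hspa1b had log2 values of 9.407, 9.651, 9.342 and 9.358 on ropivacaine arrays 1 to 4, against 9.502, 9.243, 9.393 and 9.517 on control arrays 1 to 4. The groups overlapped, with the highest value on ropivacaine array 2 and the lowest on control array 2. Ropivacaine over control gave a log2 fold change of 0.03 (SE 0.09, 95% interval -0.17 to 0.22, limma adjusted p = 0.956). In linear terms the interval runs from 0.888-fold to 1.17-fold. The sign turned, to -0.04 without ropivacaine array 2 and to -0.03 without control array 2. Like Hspb1, Hspa1b varied more within groups than most genes of its signal: its residual SD was 0.135, against a median of 0.062 among neighbours in signal, and 94.6% of them had a lower SD.

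The constitutive member of the family is Hspa8 (ENSMUSG00000015656), which encodes HSC70, the HSP70 of unstressed cells that also strips clathrin from vesicles. Its signal was among the brightest, above 99.7% of all rows, although brightness also depends on the probes of a row. Log2 values were 12.76, 12.71, 12.76 and 12.75 with ropivacaine, against 12.84, 12.76, 12.78 and 12.78 in control cells. The groups met at 12.76, and the highest value was that of control array 1. This is a log2 fold change of -0.05 (SE 0.04, 95% interval -0.13 to 0.04, limma adjusted p = 0.764), which in linear terms spans 0.916-fold to 1.03-fold. Without control array 1 the log2 fold change was -0.028, a move of over 1.5 times.

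Dnajb1 and Hsph1 encode partners of HSP70. Dnajb1 (ENSMUSG00000005483) gives HSP40, the J-domain protein that delivers substrates and stimulates ATP hydrolysis by HSP70. Its log2 values were 8.575, 8.574, 8.468 and 8.638 with ropivacaine, against 8.393, 8.285, 8.534 and 8.498 in control cells. Of the ropivacaine arrays, 3 lay above every control array, and ropivacaine array 3 lay among the control values.

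The means of Dnajb1 were 8.56 ± 0.07 with ropivacaine and 8.43 ± 0.11 in control cells (SD, n = 4 each). They differed by a log2 fold change of 0.14 (SE 0.06, 95% interval -0.01 to 0.28), a 1.10-fold level, with an unadjusted limma p of 0.064 and an adjusted p of 0.553. Without ropivacaine array 3 the log2 fold change was 0.17 and the adjusted p was 0.418, and without control array 2 they were 0.09 and 0.743. No exact heat shock unit pair was found in either RefSeq promoter window of Dnajb1.

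Hsph1 (ENSMUSG00000029657) encodes HSP105, an HSP110 protein that exchanges the nucleotide of HSP70 and helps to dissolve aggregates. Its log2 values were 10.23, 10.22, 10.22 and 10.24 with ropivacaine, against 10.19, 10.18, 10.21 and 10.17 in control cells. The groups did not overlap, but the lowest ropivacaine value and the highest control value were 0.01 apart, the step to which values of 10 and above were rounded. Such separation was seen in 1 of the 9 heat shock genes and in 6.7% of all genes.

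Hsph1 averaged 10.23 ± 0.01 with ropivacaine and 10.19 ± 0.02 in control cells (SD, n = 4 each). Between these means lay a log2 fold change of 0.04 (SE 0.03, 95% interval -0.03 to 0.11), with an unadjusted limma p of 0.250 and an adjusted p of 0.767. Its residual SD of 0.014 was the narrowest of the 9, against a median of 0.056 among its neighbours in signal, of which 0.200% had a lower SD. The moderated variance that limma uses draws so narrow a spread toward that of other genes, and the SE comes from it.

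The last bases before the more distal RefSeq start site of Hsph1 are printed because this member had the narrowest spread and non-overlapping groups. They lie on the minus strand of GRCm38.p6 at chr5:149636337-149636416, and capitals mark a match to GAANNTTC or TTCNNGAA.
Hsph1: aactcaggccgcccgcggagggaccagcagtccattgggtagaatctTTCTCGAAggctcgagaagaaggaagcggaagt
A longer element of 3 units, TTCNNGAANNTTC or GAANNTTCNNGAA, which contains 2 overlapping pairs, was found in the same window after the start site.

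Hsp90aa1 (ENSMUSG00000021270) encodes the inducible HSP90 alpha, which matures kinases and steroid receptors and keeps Hsf1 protein inactive. Its log2 values were 6.578, 6.680, 6.302 and 6.687 with ropivacaine, against 6.524, 6.235, 6.456 and 6.454 in control cells. As for Dnajb1, 3 of the 4 ropivacaine arrays lay above every control array, and ropivacaine array 3 was the exception, lying below 3 of the control arrays. The lowest value of all was on control array 2.

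The means of Hsp90aa1 were 6.56 ± 0.18 with ropivacaine and 6.42 ± 0.13 in control cells (SD, n = 4 each). Hsp90aa1 had a log2 fold change of 0.14 (SE 0.10, 95% interval -0.08 to 0.37), a 1.11-fold level, with an unadjusted limma p of 0.174 and an adjusted p of 0.699. Without ropivacaine array 3 it was 0.23, with an unadjusted limma p of 0.015 and an adjusted p of 0.321. Without control array 2 and ropivacaine array 3 it was 0.17, with an adjusted p of 0.355. Without control array 2 alone it was 0.08, with an adjusted p of 0.876, so the size of the difference moved by over 1.5 times with either array.

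**Figure D2:**
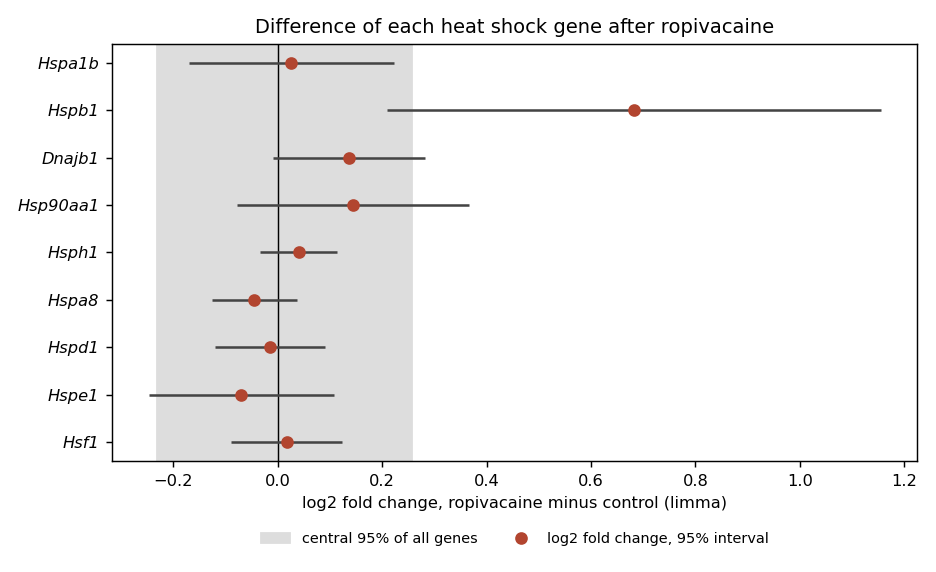
Log2 fold change of ropivacaine over control for each of 9 heat shock genes (points) with its 95% interval from limma (lines), on the horizontal axis. The grey band holds the central 95% of the log2 fold changes of all 17592 genes, from -0.23 to 0.26. Hspb1, at 0.68, is the 1 gene whose point lies outside the band.

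Both mitochondrial genes had log2 fold changes slightly below 0, within their error. Hspd1 (ENSMUSG00000025980) encodes HSP60, the ring-shaped chaperonin of the matrix. Its log2 values were 11.12, 11.05, 11.17 and 11.00 with ropivacaine, against 11.06, 11.11, 11.13 and 11.10 in control cells. The ropivacaine arrays reached both above and below the control range. The log2 fold change was -0.02 (SE 0.05, 95% interval -0.12 to 0.09, limma adjusted p = 0.953), and it turned to 0.01 without ropivacaine array 4 and was -0.04 without ropivacaine array 3.

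Hspe1 (ENSMUSG00000073676) encodes HSP10, the lid of the HSP60 ring. Its log2 values were 12.10, 12.24, 12.12 and 12.32 with ropivacaine, against 12.14, 12.36, 12.16 and 12.40 in control cells. In each group, arrays 2 and 4 were higher than arrays 1 and 3, and every ropivacaine array lay below the control array of the same number. Hspe1 had a log2 fold change of -0.07 (SE 0.08, 95% interval -0.25 to 0.11, limma adjusted p = 0.842). With 1 array left out it ranged from -0.112 (without ropivacaine array 4 or control array 1) to -0.025 (without control array 4), so single arrays moved it by over 1.5 times. Hspe1 too varied more within groups than most genes of its signal. Its residual SD was 0.120, against a median of 0.046 among neighbours in signal, and 95.8% of them had a lower SD. The labels do not say that equal numbers share a culture or a day.

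Hspd1 and Hspe1 lie head to head on mouse chromosome 1 and their RefSeq promoter windows overlap. A stretch of this overlap is printed because it holds the longest run of exact heat shock units found among the members. The 50 bases run from 105 to 56 bases before the RefSeq start site of Hspe1, on the plus strand of GRCm38.p6 at chr1:55088043-55088092, and capitals mark 2 overlapping matches to TTCNNGAANNTTC or GAANNTTCNNGAA.
Hspe1: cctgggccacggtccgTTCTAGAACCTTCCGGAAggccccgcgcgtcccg
The same bases lie in a RefSeq promoter window of Hspd1 on the opposite strand. An element of 3 exact units was present in at least 1 window of 3 of the 7 members with a promoter window (Hsph1, Hspd1 and Hspe1). Over all single windows the share was 0.603%. The units differ, as Dnajb1, Hsph1 and Hspd1 had 2 windows each, and Hspd1 held the element in 1 of them. Hspd1 and Hspe1 count the same bases. A pair of exact units was present in at least 1 window of 6 of the 7 members, and in 15.1% of all single windows. The 6 include the near-identical Hspa1a and Hspa1b, and Hspd1 and Hspe1 with their shared stretch, so they are not independent. Hsp90aa1, Hspa8 and Hsf1 had no window.

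No relation between Hspd1 and Hspe1 over the 8 arrays passed its test. Pearson's r was -0.39 (exact permutation test over pairings, two-sided, p = 0.345) and Spearman's rho was -0.48 (exact p = 0.243). Without the 2 arrays farthest from the median of Hspd1, r was -0.01 (exact p = 0.992). The other two of the 3 pairs tested did not pass either: Hspb1 with Dnajb1 gave r of 0.35 and rho of 0.14 (exact permutation p = 0.396 and 0.752), and Hsp90aa1 with Hsph1 gave r of 0.56 and rho of 0.71 (exact permutation p = 0.149 and 0.058). Adjusted over the 3 pairs, the exact permutation p-values were 0.396 for each r, and 0.365, 0.752 and 0.174 for the rho of Hspd1, Hspb1 and Hsp90aa1 with their partners. Without the 2 arrays farthest from the median of the first gene, r was -0.09 for Hspb1 with Dnajb1 and 0.19 for Hsp90aa1 with Hsph1 (exact permutation p = 0.860 and 0.697).

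**Figure D3:**
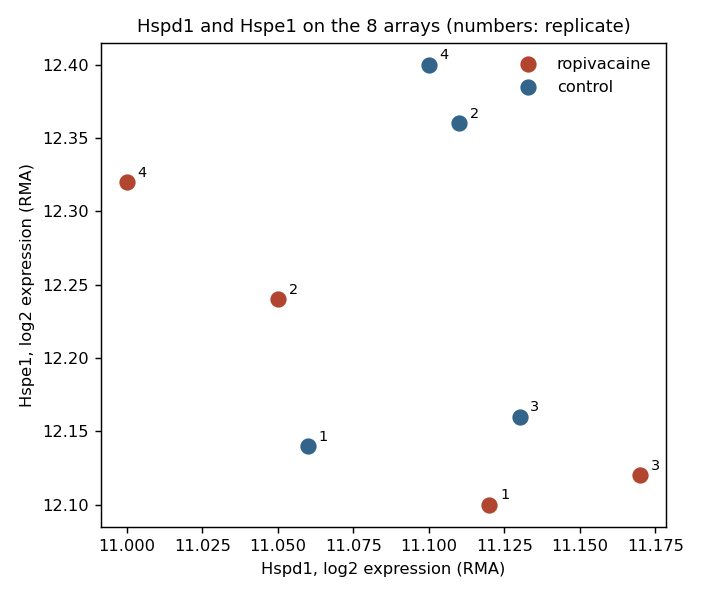
Log2 expression (RMA) of Hspe1 on the vertical axis against Hspd1 on the horizontal axis, 1 point per array, ropivacaine in red and control in blue, with the replicate number beside each point. Hspe1 falls into a lower level on arrays 1 and 3 (12.10 to 12.16) and a higher level on arrays 2 and 4 (12.24 to 12.40) of both groups. Hspd1 is higher on arrays 1 and 3 (11.12 and 11.17) than on arrays 2 and 4 (11.05 and 11.00) with ropivacaine, and is not split by these numbers in control cells.

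The regulator itself showed little difference. Hsf1 (ENSMUSG00000022556) had log2 values of 8.541, 8.467, 8.484 and 8.525 with ropivacaine, against 8.488, 8.393, 8.491 and 8.578 in control cells. The ropivacaine values lay inside the control range. The log2 fold change was 0.02 (SE 0.05, 95% interval -0.09 to 0.12, limma adjusted p = 0.947), which in linear terms spans 0.939-fold to 1.09-fold, and it turned to -0.01 without control array 2. As background, the factor is controlled mainly after translation, through its assembly, modification and binding by chaperones.

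Single arrays differed in how many members they placed low. Control array 2 held the lowest control value for 6 of the 9 genes and lay above the control mean for 2 of them, with a median deviation of -0.09 from its group means. Ropivacaine array 3 held the lowest ropivacaine value, or shared it, for 4 of the 9. The estimated array weights of this pair were the lowest of the 8, 0.580 for control array 2 and 0.708 for ropivacaine array 3, against 0.909 to 1.55 for the others. Without both arrays the log2 fold change was -0.013 for Hspe1, -0.060 for Hspa8, -0.040 for Hspd1 and 0.040 for Hsph1, against -0.070, -0.045, -0.015 and 0.040 with all 8, and none was called (limma adjusted p = 0.977, 0.707, 0.836 and 0.788). All 8 arrays had a median of 6.91 and quartiles that differed by at most 0.001, as the authors' normalization sets them.

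**Figure D4:**
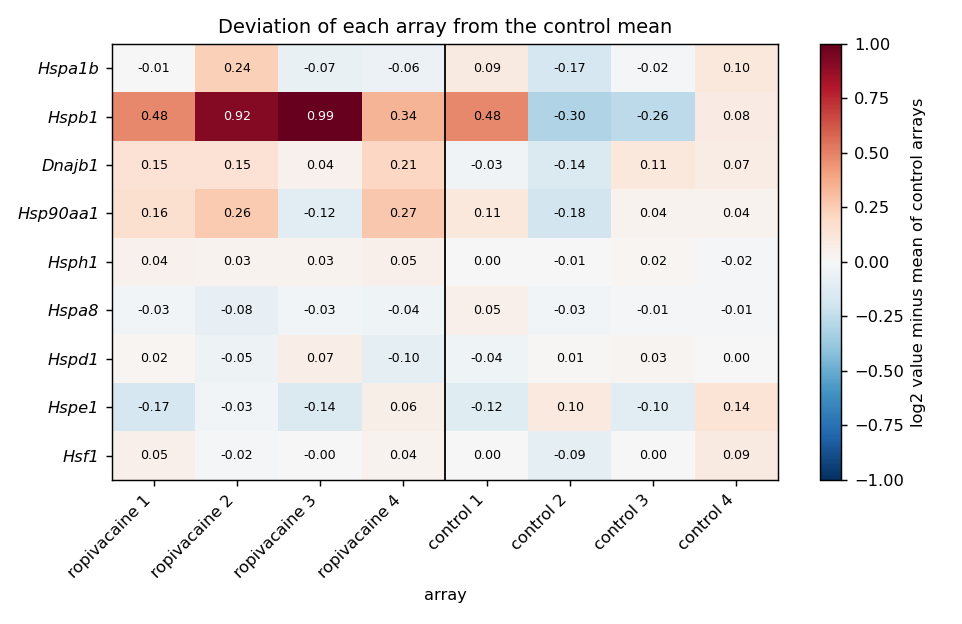
Log2 value of each of 9 heat shock genes (rows) on each array (columns, ropivacaine left of the line, control right) minus the mean of the 4 control arrays, printed in each cell and coloured red above 0 and blue below. The ropivacaine arrays of Hspb1 range from 0.34 to 0.99 above the control mean. Dnajb1 and Hsph1 are also above it on all 4, and Hspa8 is below it on all 4. For Hspa8, control arrays 2, 3 and 4 are below it too, and control array 1 is 0.05 above. The share of all genes with all 4 ropivacaine arrays on the same side was not computed.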

How the data were processed

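The deposited file holds log2 values for 8 Affymetrix mouse Exon 1.0 ST arrays, 1 per sample. Per the submitters' processing notes, the authors used RMA, which corrects background, equalises arrays and summarises probes per gene. Its probe set definition, annotation and filters are not stated in the sources used here. Scanner files were not used here, so scan batches could not be tested and signal over background is unknown. The number of arrays limits the precision.

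Groups follow the sample titles. The fit used limma 3.58.1 in R 4.3.3 on all 17592 genes, without covariates or a filter, two-sided, and was tested on simulated data. The text names all 10 members. The member rule uses identifiers alone, but the members, lists and tests were chosen with earlier results of these data known. Symbols came with the member list, because the RefSeq gene table (GRCm38.p6) holds no Ensembl identifiers. Wider chaperone lists and cell type markers, set by symbol, could therefore not be applied. Promoter windows came from RefSeq (GRCm38.p6), matched by symbol for 7 of 10 members. The "genes nearest in mean signal" were about 500 rows around each member. The labels state no pairing, and none was assumed. Figures used matplotlib 3.10.9.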

Additional observations from a re-analysis of the deposited data

How the results depend on the processing

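No heat shock gene was called by limma in any of the 18 other settings. This was likely, as each called only 3 to 179 of the genes tested. At an unadjusted p below 0.05 there were 0 to 3 members, with the share of all genes not computed. Of 150 log2 fold changes recomputed under these settings, 145 kept their sign and 5 did not. Many could not change sign. The replicate block, median centring, intensity trend, robust moderation and dim-gene filters leave the value unchanged, and quantile normalization nearly so. The lowest adjusted p was 0.176, for Hspb1 without control replicate 1. With the replicate number as a block, 0 members and 3 of all genes were called, the adjusted p of Hspb1 was 0.458, and Hspe1 had an SE of 0.04 in place of 0.08 and an adjusted p of 0.638. Same-numbered arrays deviated from their group means with correlations of 0.138, 0.009, 0.056 and 0.070. For 4 of 8 arrays the same number gave the highest correlation. With 4 candidates per array, some such matches arise without pairing. Their expected number was not computed. A shared culture or day was not tested. The 5 changes of sign were Hspa1b without ropivacaine replicate 2 (-0.045) and without control replicate 2 (-0.031), Hspd1 without ropivacaine replicate 4 (0.013), and Hsf1 without control replicate 2 (-0.015) and without the pair of lowest array weight, control replicate 2 and ropivacaine replicate 3 (-0.008, a setting chosen after seeing the data). Over fits with 1 array left out, Hspa1b ranged from -0.045 to 0.060, Hspd1 from -0.043 to 0.013, Hsf1 from -0.015 to 0.047, Hspe1 from -0.112 to -0.025, Hspa8 from -0.055 to -0.028, Hsph1 from 0.034 to 0.048, Dnajb1 from 0.089 to 0.172, Hsp90aa1 from 0.084 to 0.231 and Hspb1 from 0.578 to 0.843. Over all genes, 71 were called, against 15 to 31 with 1 array left out (15 without control replicate 3), 7 without that pair, 135 with an intensity trend, 114 without the dimmest 25% of genes, 179 without the dimmest 50%, and 150 at an adjusted p below 0.1. Filtered and left-out fits hold fewer genes or arrays by construction. Otherwise the cause was not tested. Hspb1 was not tested without the dimmest 25%, nor Hspb1 and Hsp90aa1 without the dimmest 50%, since their signal falls under the limit. Without the 2 arrays farthest from the median, r of Hspb1 with Dnajb1 turned to -0.088. With values set against group means it turned to -0.26, and r of Hsp90aa1 with Hsph1 moved to 0.35. Wider gene lists and the pair of Hspa1a with Hspa1b could not be run, because their rows carry no names or are missing. Without scanner signals, limits from background are not known.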
